A study of Homo sapiens with 9 samples.

Results

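COLCA1, RASEF, SLC25A16, TRIM4, CDK13, ZNF721, PRR11 and ZNF595 are 8 genes that share no pathway, and they were brought together by their array signal. They were chosen by the mean signal over these arrays, because at least 1 of their probe sets was very bright and had a mean signal in exosomes close to or above that in microvesicles (for ZNF721 it was 1.23-fold higher in microvesicles). They are 8 of the 19,775 genes that the array annotation names by 1 symbol. All probe sets that the array annotation pairs with 1 of these symbols alone were taken, 29 of the 54,675 on the array. The high signal and its near equality in the 2 vesicle fractions are therefore what chose the genes, and for these 8 genes both are described below without a test.

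RNA was measured in vesicles shed by the established human embryonic stem cell (hESC) line H9, grown without feeder cells or serum in mTeSR1 medium on Matrigel. No group carried a treatment or a genetic change, and no RNA of the parent cells was on these arrays. Microvesicles (MVs) were pelleted at 16,500g for 1 h from medium cleared at 2,800g. Exosomes (EXOs) were pelleted from what remained at 120,000g for 2 h. Non-fractionated extracellular vesicles (hESEVs) were, according to the labels, pelleted at 120,000g for 2 h directly after a spin at 300g, and the methods of the study give other spins for them. Each group had 3 arrays, described as biological samples, so that the p-values below measure the spread between 3 preparations of 1 cell line. Fractions made by differential centrifugation are enriched by size and density and are not pure vesicle types.

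The array carries short probes, grouped in probe sets that each give 1 signal. A probe set whose name ends in _x_at holds probes that are identical or very similar to sequence in other transcripts, and 1 that ends in _s_at holds probes shared by several transcripts, usually of the same gene or family. Probe sets ending in plain _at were designed to be specific. Signals are MAS5 intensities on a linear scale, set by the authors to a common average of 500 on every array. Probe sets differ in how strongly they bind, so a signal is compared below between arrays, and the place of a probe set among all is a place by signal and not by the amount of RNA. Since similar amounts of labelled RNA went onto each array, signals are relative to the RNA of a sample, and fewer vesicles and less RNA per vesicle cannot be told apart. No probe sequence was used here.

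The 8 genes differ in what they encode. COLCA1 (gene ID 399948) is annotated as a long non-coding RNA gene and takes its name from colorectal cancer. RASEF (158158) encodes a large Rab-type GTPase with calcium-binding EF-hands, and SLC25A16 (8034) a carrier of the mitochondrial inner membrane. TRIM4 (89122) is a RING-type ubiquitin ligase of antiviral RNA sensing. CDK13 (8621) is a kinase that, with cyclin K, phosphorylates RNA polymerase II during elongation. ZNF721 (170960) and ZNF595 (152687) encode C2H2 zinc finger proteins of the same gene cluster. PRR11 (55771) encodes a proline-rich protein of the cell cycle and shares its promoter region with SKA2.

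The vesicle RNA carried the transcripts that define pluripotent cells. All 10 measured pluripotent cell markers of 11 listed were higher in MVs than in EXOs (limma, adjusted p under 0.05 and at least 2-fold), beside 7.23% of all probe sets, and their summed signal ran from 67,428 to 70,452 on MVs arrays, from 13,606 to 16,556 on EXOs arrays and from 19,610.4 to 22,015 on hESEVs arrays. Of 23 measured markers of other cells, 2 passed, EOMES and HAND1, both higher in EXOs, beside 1.97% of all probe sets. Their MVs means, 436 ± 105 and 414 ± 66.2, were near the median of the MVs arrays (358 to 365) and may be background. The size of their differences is therefore uncertain. The summed signal of the 23 ran from 9343 to 10,632 on MVs arrays, from 14,645 to 15,258 on EXOs arrays and from 13,661 to 13,830.4 on hESEVs arrays. The part of these shifts in the signals below was not tested. Each marker was taken by its brightest probe set, so the shares over all probe sets are not like for like.

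COLCA1 had the brightest probe set of the 8 genes, 238701_x_at. Its signal was 101,015, 95,079 and 87,706 on the MVs arrays, 113,139, 106,056 and 121,671 on the EXOs arrays, and 116,204, 117,200 and 109,782 on the hESEVs arrays. All EXOs and hESEVs arrays lay above all MVs arrays, by a small margin: the means were 94,600.2 ± 6667 in MVs, 113,622 ± 7819 in EXOs and 114,395 ± 4026 in hESEVs (SD, n = 3). On the log2 scale MVs minus EXOs was -0.26. The only other COLCA1 probe set, 230956_at, ran from 29.9 to 285 over the 9 arrays, with group means of 67.7 ± 39.7 in MVs, 139 ± 127 in EXOs and 86.7 ± 68.5 in hESEVs. The 2 probe sets of this gene thus differed in signal on every array far more than any pair of groups did.

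RASEF was the only gene with a bright probe set that carried the plain suffix beside a bright _x_at probe set. The plain probe set, 1553185_at, gave 90,958, 98,291 and 94,132 in MVs, 94,028, 90,264 and 97,582 in EXOs, and 84,417, 85,817 and 81,884 in hESEVs. MVs and EXOs overlapped, with a log2 difference of 0.0077, and the hESEVs arrays lay below all others. Its neighbour 1553186_x_at gave 84,175 ± 5455 in MVs, 90,566 ± 7818 in EXOs and 79,450.2 ± 8087 in hESEVs. The pair stayed together, with log2 differences between them of -0.064 to 0.32 over the 9 arrays. The other 3 RASEF probe sets, all with the plain suffix, ran from 34.7 to 1423. The brightest of them, 1553986_at, had means of 709.5 ± 159.5 in MVs, 1141 ± 254 in EXOs and 865 ± 226 in hESEVs.

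For SLC25A16 the probe set 210686_x_at gave 55,314, 55,764 and 50,984 in MVs, 59,040.3, 59,997 and 60,072 in EXOs, and 58,055, 54,543 and 48,436 in hESEVs. The EXOs arrays were nearly identical and lay above both other groups, and MVs and hESEVs overlapped. MVs minus EXOs was -0.15 on the log2 scale. The 3 other probe sets of this carrier, all plain, stayed between 16.0 and 638 on every array.

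TRIM4 and ZNF595 were the members with the lowest MVs signal relative to EXOs. TRIM4 224159_x_at gave 25,909, 23,763 and 28,070.3 in MVs, 38,086, 39,492 and 44,143 in EXOs, and 40,004, 39,888 and 41,933 in hESEVs. Every EXOs and hESEVs array was above every MVs array, and the log2 difference of MVs minus EXOs was -0.65. ZNF595 227952_at, a probe set with the plain suffix, gave 16,818, 15,817 and 19,232 in MVs, 26,112, 21,871 and 22,712 in EXOs, and 26,126, 28,547 and 28,257 in hESEVs. Here too the MVs arrays lay below all others, at a log2 difference of -0.45, and the hESEVs arrays were the highest, the lowest of them by a narrow margin over EXOs replicate 1.

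The other probe sets of these 2 genes were dim. TRIM4 223384_s_at had means of 1006 ± 233 in MVs, 1149 ± 202 in EXOs and 1703 ± 372 in hESEVs. TRIM4 230173_at gave 339, 65.1 and 149 in MVs against 721, 814 and 772 in EXOs, and 503, 578 and 658 in hESEVs. The MVs arrays lay below all others, at signals under the median of their arrays (358 to 365) that may be background, so no fold is given. ZNF595 1570038_at had means of 401 ± 260.3 in MVs, 900.0 ± 24.8 in EXOs and 751 ± 143 in hESEVs. A pair of further probe sets names ZNF595 together with other zinc finger genes and was left out. These ran from 9.59 to 474.

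CDK13 232266_x_at gave 27,696, 25,609 and 27,029.7 in MVs, 25,281, 28,478 and 29,226 in EXOs, and 20,688, 17,580.2 and 17,361 in hESEVs. MVs and EXOs overlapped, at a log2 difference of -0.045, and all hESEVs arrays were lower than all others. This kinase had the most probe sets of the 8 genes, and its 6 other probe sets ran from 12.7 to 2047. The only _x_at probe set among them, 210965_x_at, was dim: its means were 453 ± 139 in MVs, 802 ± 96.7 in EXOs and 616 ± 182 in hESEVs. The suffix went with a high signal in 1 of the 2 CDK13 probe sets that carry it.

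ZNF721 was the member with the highest MVs signal relative to EXOs. Its probe set 215978_x_at gave 32,824, 29,257 and 28,776 in MVs, 26,177, 26,405 and 21,243 in EXOs, and 20,947, 20,259.5 and 22,565 in hESEVs. The MVs arrays were above all others, at a log2 difference from EXOs of 0.30, and EXOs and hESEVs overlapped. The other probe set, 228029_at, gave 846, 778 and 1196 in MVs, 206, 189.8 and 68.5 in EXOs, and 361, 372 and 204 in hESEVs. The MVs arrays lay above all others here too, and the EXOs signals were under the median of their arrays (422 to 429.7) and may be background, so no fold is given.

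PRR11 had a pair of bright probe sets and a dimmer one that behaved differently. PRR11 232215_x_at gave 23,575, 25,576 and 25,736 in MVs, 26,032, 22,808 and 24,205 in EXOs, and 14,144, 15,268 and 18,389.5 in hESEVs. PRR11 219392_x_at gave 17,277, 19,070.1 and 21,442 in MVs, 17,389, 24,126 and 15,058 in EXOs, and 8140, 9925 and 10,528 in hESEVs. In both, MVs and EXOs overlapped (log2 differences of 0.037 and 0.054) and all hESEVs arrays were lower. The plain probe set 228273_at gave 6184, 4778 and 4973 in MVs, 1746, 1472 and 1328 in EXOs, and 1703, 1554 and 1719 in hESEVs. The geometric mean of the MVs arrays was 3.51-fold that of the EXOs arrays, and hESEVs overlapped EXOs. The 3 probe sets of this gene thus did not give the same difference between the fractions.

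**Figure D1:**
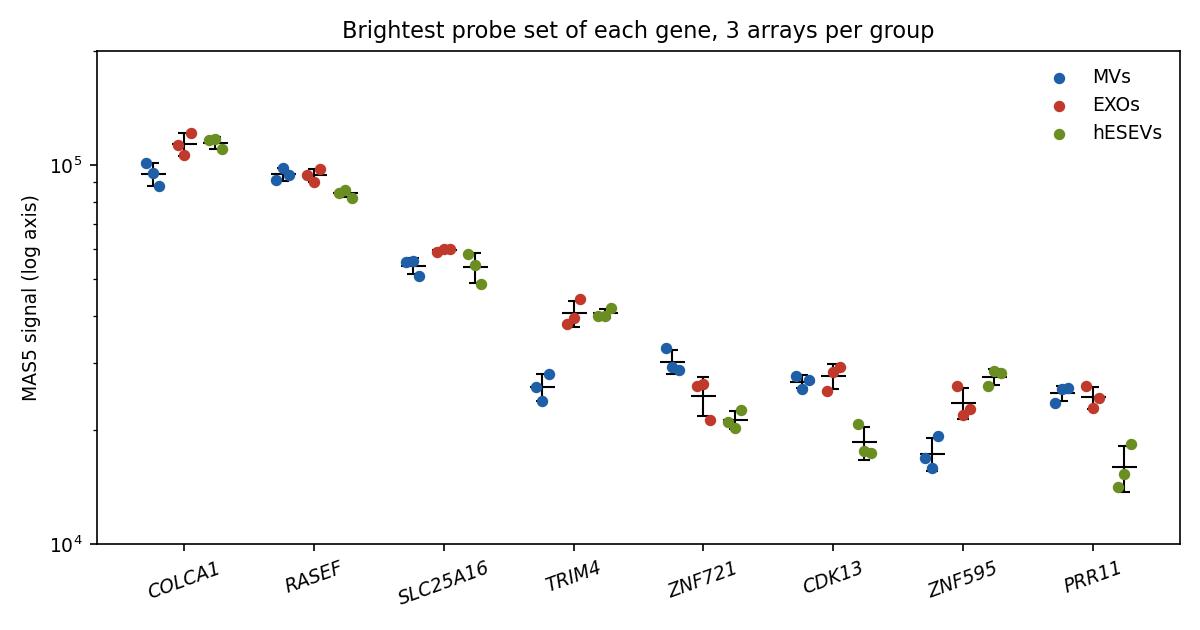
Signal of the brightest probe set of each of the 8 genes on the 9 arrays (points, MAS5 signal on a log axis), with the mean and SD of the 3 arrays of MVs, EXOs and hESEVs (bars). COLCA1 and RASEF lie highest, between 81,884 and 121,671, the hESEVs points of CDK13 and PRR11 sit below both fractions, and the MVs points of TRIM4 and ZNF595 sit below both other groups.

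Set side by side, the lead probe sets, meaning the brightest of each gene over the 9 arrays, had log2 differences of MVs minus EXOs from -0.65 to 0.30 with a median of -0.10. The median over all 54,613 probe sets without controls was -0.29. Over the 1% of probe sets with the highest mean log2 signal, 546 in number with a geometric mean of at least 3914, the median was 2.91, which is higher in MVs. The MVs and EXOs arrays did not overlap for 5 of the 10 bright member probe sets and 8 of the 19 others, beside 35.0% of all probe sets, and since these values chose the genes nothing is read from the counts.

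In each of the 8 genes the bright signal came from 1 or 2 probe sets and not from all. Of the 29 member probe sets, 10 were in the highest 1% and are called bright here. The dimmest of the bright, PRR11 219392_x_at, had a geometric mean of 14,979 over the 9 arrays, and the next member, PRR11 228273_at, had 2361. The 19 others had log2 differences of MVs minus EXOs from -2.37 to 2.73 with a median of -0.38, and 16 of them were negative. Of these 19, 15 were within 2-fold between the fractions, 2 were over 2-fold higher in MVs (PRR11 228273_at and ZNF721 228029_at) and 2 were over 2-fold higher in EXOs (TRIM4 230173_at and ZNF595 1570038_at). The ends of the range, TRIM4 230173_at and ZNF721 228029_at, rest on signals in MVs and in EXOs, respectively, that may be background. The MVs mean of ZNF595 1570038_at, 401, was near the median of the MVs arrays (358 to 365). The size of these 3 differences is uncertain.

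**Figure D2:**
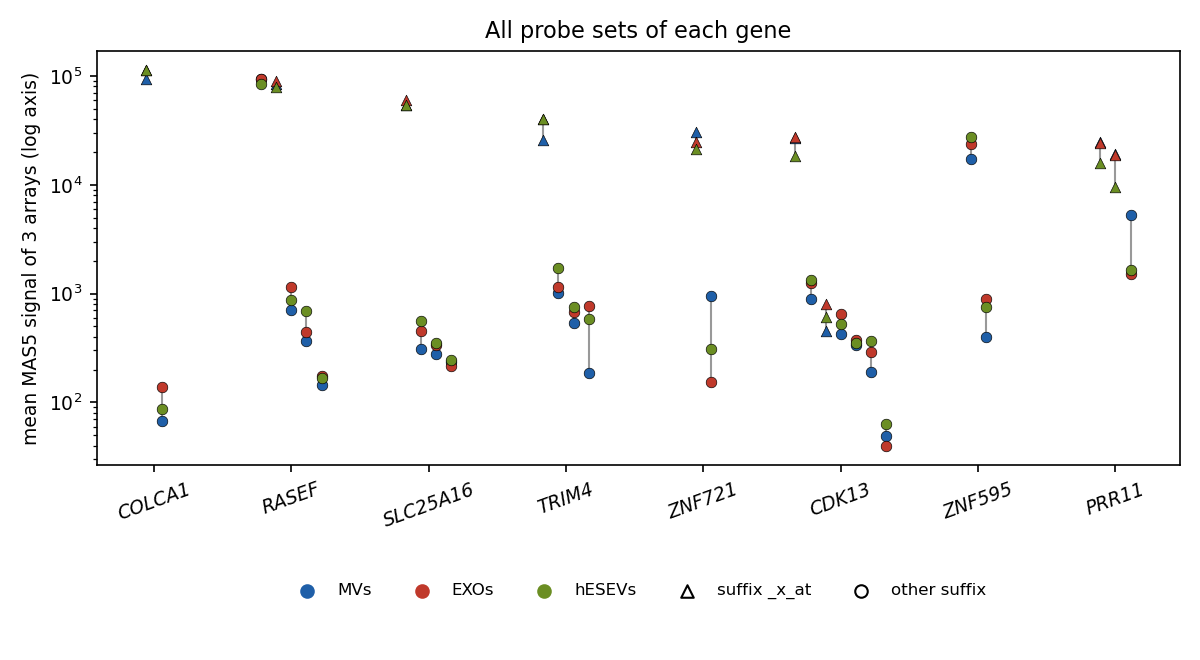
Mean signal of 3 arrays for each of the 29 probe sets of the 8 genes (MAS5 signal, log axis), coloured by MVs, EXOs and hESEVs, with triangles for the suffix _x_at and circles for other suffixes. In every gene a gap lies between the bright probe sets and the rest, and 8 of the 10 bright ones are triangles.

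The suffix of the probe sets was not used in the choice of the genes. The suffix _x_at marked 8 of the 10 bright probe sets, or 80%, and 1 of the 19 others, and the bright probe sets of RASEF (1553185_at) and ZNF595 (227952_at) were plain. Over all probe sets its share was 7.70%, and over the highest 1% it was 57.1%. Within the highest 1%, 172 probe sets (31.5%) were within 2-fold between MVs and EXOs, and 72.1% of these were _x_at, close to the share among the bright members. Of the 370 over 2-fold higher in MVs, 50.8% were _x_at, and 4 were over 2-fold higher in EXOs. The shares describe this array and were not tested, since probe sets of related sequence are not independent.

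The 10 bright member probe sets were part of a larger set of bright probe sets that lay within 2-fold between the fractions. Of the 172, 89 had 1 gene symbol, 12 had several and 71 had none. The brightest of the 172, 234675_x_at, has no gene symbol and had means of 100,749 in MVs, 145,809 in EXOs and 131,859 in hESEVs. COLCA1 238701_x_at and RASEF 1553185_at followed it.

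**Figure D3:**
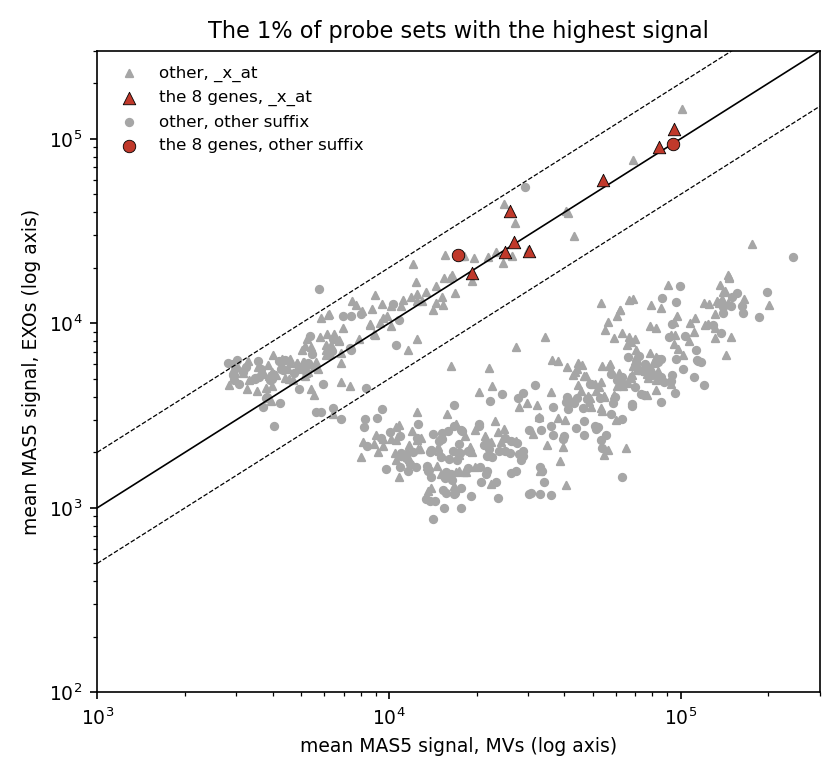
Mean signal in EXOs against mean signal in MVs (MAS5 signal, both axes log) for the 546 probe sets of the highest 1%, with the 10 of the 8 genes in red and triangles for the suffix _x_at. The red points lie along the line of equal signal, apart from the larger cloud of 370 probe sets that were over 2-fold higher in MVs.

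A near equal signal went with unequal places among all probe sets. By group mean, COLCA1 238701_x_at was in place 58 in MVs, 6 in hESEVs and 2 in EXOs, and RASEF 1553185_at was in places 59, 10 and 3. SLC25A16 was in places 152, 30 and 6, TRIM4 in 248, 47 and 10, and ZNF595 in 307, 83 and 20. ZNF721 was in places 226, 112 and 17, CDK13 in 243, 141 and 14, and PRR11 232215_x_at in 251, 178 and 18. The order of the groups was the same for all 10 bright probe sets. The 10 together made up 0.889% to 0.938% of the summed signal of an MVs array, 1.24% to 1.27% of an hESEVs array and 1.60% to 1.67% of an EXOs array. An MVs array had 288 to 337 probe sets at or above its own dimmest bright member, an hESEVs array 234 to 305 and an EXOs array 28 to 50.

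**Figure D4:**
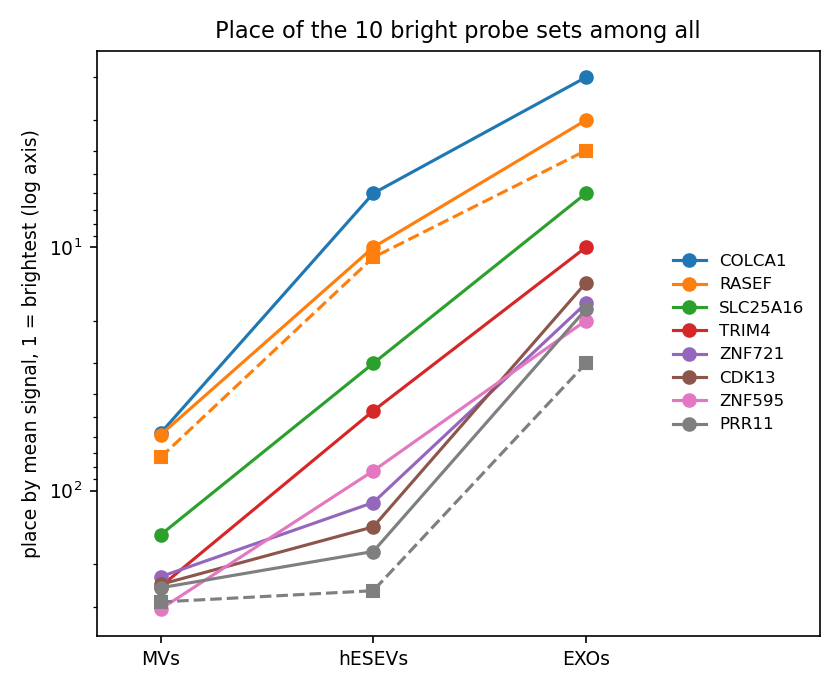
Place of the 10 bright probe sets among all probe sets by mean signal of 3 arrays (log axis, 1 is the brightest) in MVs, hESEVs and EXOs, with dashed lines for the pair of second bright probe sets of RASEF and PRR11. Every line climbs from MVs, at places 58 to 307, to EXOs, at places 2 to 30.

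The near equality depended on how the arrays were scaled. With each array shifted to its hybridization spike-ins, MVs minus EXOs of the lead probe sets stayed between -0.61 for TRIM4 and 0.35 for ZNF721, close to the values above. With quantile normalization, which forces the same distribution of signals on all arrays, it was negative for all 8 genes, from -1.74 for RASEF to -2.75 for TRIM4. With each array centred on its median log2 signal, it was -0.41 for TRIM4, -0.21 for ZNF595 and -0.031 for COLCA1, and it was positive for the other 5, up to 0.54 for ZNF721. Centring turned the sign for SLC25A16, to 0.088, and for CDK13, to 0.19. TRIM4 and ZNF595 had the lowest differences under all 4 scalings.

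Control probe sets of the array for repeated and ribosomal RNA are given beside these signals. The Alu control, for the most abundant short interspersed repeat of the human genome, gave 370,992, 382,263 and 302,864 in MVs, 373,880, 358,775 and 393,385 in EXOs, and 396,765, 337,046 and 312,029 in hESEVs. The groups overlapped, and MVs minus EXOs was -0.099 on the log2 scale. The control for the 5′ part of 28S ribosomal RNA, M27830_5, gave 63,683 ± 4580.4 in MVs, 4851 ± 241 in EXOs and 63,263 ± 7462 in hESEVs, a log2 difference of 3.71. The control for the middle part of 28S had a log2 difference of 1.99. That for the 3′ part had -0.15, at far lower means of 710 ± 179 in MVs, 782 ± 185 in EXOs and 809 ± 163 in hESEVs. Control probe sets for 18S ribosomal RNA differed less and not all in the same direction, from -0.43 to 1.05. Whether the bright probe sets of the 8 genes bound repeat or ribosomal sequence was not tested.

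The difference between hESEVs and the mean of both fractions was not used to choose the genes, though hESEVs signals entered the mean that did. It was tested in 1 fit of all 9 arrays (limma, Benjamini-Hochberg adjustment over all 54,613 probe sets). The 3 PRR11 probe sets and the bright probe set of CDK13 had lower signals in hESEVs than this mean. None of the 29 member probe sets reached an adjusted p under 0.05 together with a 2-fold difference, beside 0.137% of all probe sets. At an adjusted p under 0.05 alone, 4 of the 29 passed, all lower in hESEVs, beside 0.260% of all probe sets lower and 0.414% in either direction. These 4 come from 2 genes, and 3 of them were among the 10 bright probe sets. Bright probe sets had smaller standard errors than most of the 19 others and so pass more easily. No share was counted for the highest 1%, so no enrichment is read from these counts. At an unadjusted p under 0.05, 9 of the 29 passed, 5 lower and 4 higher in hESEVs, beside 10.3% of all. On the same values the methods' t-test, which is unpaired, gave 11 of 29 without adjustment and 0 after it.

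All 3 PRR11 probe sets passed, whatever their behaviour between the fractions. The log2 difference of hESEVs minus the mean of the fractions was -0.99 for 219392_x_at (95% interval -1.32 to -0.66; limma adjusted p = 0.022). It was -0.64 for 232215_x_at (-0.86 to -0.41; adjusted p = 0.029) and -0.77 for the plain 228273_at (-1.03 to -0.50; adjusted p = 0.024). For 228273_at the hESEVs arrays overlapped the EXOs arrays and lay below the MVs arrays, so the mean of the fractions stood above both. CDK13 232266_x_at differed by -0.56 (-0.77 to -0.34; limma adjusted p = 0.041), and the 6 other CDK13 probe sets did not pass, with differences of -0.023 to 0.62.

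These calls rested on all 9 arrays. When each array was left out in turn, PRR11 219392_x_at passed in 3 of 9 fits, at log2 differences of -1.07 to -0.88 and adjusted p of 0.018 to 0.10. PRR11 228273_at passed in 3 of 9, at -0.81 to -0.71, and PRR11 232215_x_at in 2 of 9, at -0.74 to -0.56. CDK13 232266_x_at passed in 1 of 9, at -0.64 to -0.51 with adjusted p of 0.045 to 0.21. None of the 4 passed in the fits without MVs replicate 1, 2 or 3 or without hESEVs replicate 1 or 2. All 4 kept a negative difference in all 9 fits.

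The lead probe sets of the other 6 genes did not pass the adjusted threshold in this comparison. ZNF595 had the largest difference upwards, 0.46 (95% interval 0.24 to 0.68; limma adjusted p = 0.10), followed by TRIM4 at 0.33 (0.11 to 0.55; adjusted p = 0.25). ZNF721 was at -0.36 (-0.59 to -0.13; limma adjusted p = 0.22). The intervals for COLCA1, 0.14 (-0.14 to 0.43), RASEF, -0.16 (-0.42 to 0.096), and SLC25A16, -0.085 (-0.32 to 0.15), all included 0, with limma adjusted p of 0.74, 0.67 and 0.82. The intervals of these 6 lead probe sets lay within 2-fold in either direction. The median over all probe sets was 0.076.

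**Figure D5:**
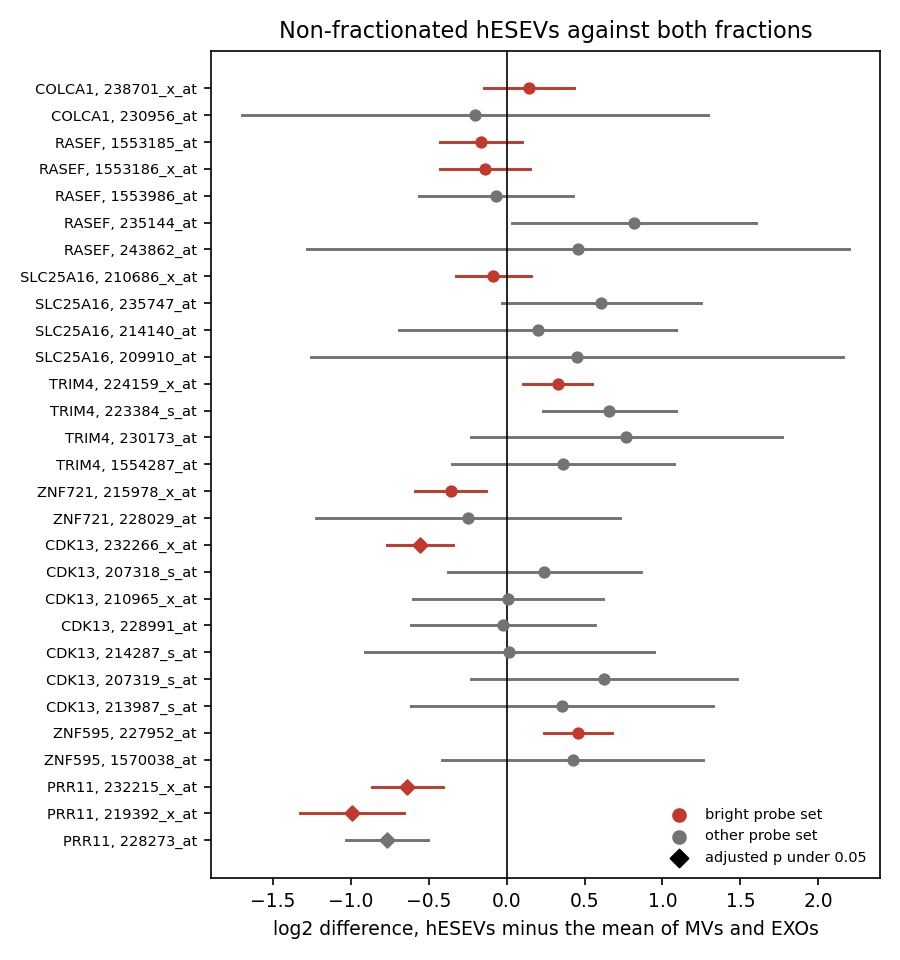
Log2 difference of hESEVs minus the mean of MVs and EXOs for the 29 probe sets of the 8 genes (points), with 95% intervals from the fit of 9 arrays (bars), bright probe sets in red and diamonds for an adjusted p under 0.05. The 4 diamonds, for PRR11 and CDK13, lie between -0.99 and -0.56, and the dim probe sets have the widest bars.

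Against each fraction alone, the hESEVs arrays did not overlap the MVs arrays for 8 of the 10 bright and 6 of the 19 other member probe sets, beside 29.1% of all probe sets. They did not overlap the EXOs arrays for 6 of the 10 bright and 2 of the 19 others, beside 16.8% of all. Most bright probe sets had less spread between arrays, relative to their signal, than most of the 19 others, and so separate more easily. No share was counted for bright probe sets of other genes, and the signals compared entered the choice of the genes. Nothing is therefore read from these counts. Among the bright probe sets, hESEVs lay below both fractions for CDK13, for both of PRR11 and for RASEF 1553185_at, and above both for ZNF595. For TRIM4 and COLCA1 hESEVs overlapped EXOs and lay above MVs, and for ZNF721 hESEVs overlapped EXOs and lay below MVs. SLC25A16 in hESEVs overlapped MVs and lay below EXOs.

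Genes that act with, resemble or neighbour the 8 were compared between MVs and EXOs, each by its brightest probe set over the 9 arrays. Of 35 listed, 33 were measured, 7 were higher in MVs and none in EXOs (limma, adjusted p under 0.05 and at least 2-fold), beside 7.23% of all probe sets called higher in MVs and 1.97% higher in EXOs. At an unadjusted p under 0.05 and 2-fold, limma and the methods' t-test each gave 1 higher in EXOs, CDK9. The median log2 difference of the 33 was 0.22, beside -0.29 over all probe sets. These comparisons with all probe sets are not like for like, since each gene was taken by its brightest probe set. With 1 probe set a gene, 2812 of 19,775 genes were called in either direction, beside 5027 of all 54,613 probe sets.

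Of the 8 measured genes listed beside CDK13, kinases of transcription with their cyclins and the assembly factor MNAT1, 2 were higher in MVs. CCNK, the cyclin that CDK13 binds, had means of 1465 ± 139 in MVs and 562 ± 46.1 in EXOs (log2 difference 1.38, limma adjusted p = 0.0011). CDK7, the kinase of transcription initiation, had 1760.4 ± 147 and 503 ± 101 (1.82, limma adjusted p = 5.4e-04). CDK9, a kinase of elongation, had 116 ± 122 and 474 ± 47.4 and did not pass (-2.56, limma adjusted p = 0.082). Its MVs mean was under the median of the MVs arrays (358 to 365) and may be background, so the size of its difference is uncertain. CCNT1, a cyclin of CDK9, had 1420.5 ± 61.3 and 1018 ± 114 and did not pass either (0.49, limma adjusted p = 0.066).

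Of the 6 measured mitochondrial carriers listed beside SLC25A16, 2 were higher in MVs. SLC25A3, the phosphate carrier, had means of 17,562 ± 1427 in MVs and 1985 ± 463 in EXOs (log2 difference 3.17, limma adjusted p = 1.3e-05). SLC25A5, an ADP/ATP carrier, had 12,299 ± 974 and 1773 ± 314 (2.81, limma adjusted p = 7.2e-06). SLC25A20, the carnitine carrier, had 957 ± 195 and 1802 ± 105, a log2 difference of -0.93 that was under 2-fold (limma adjusted p = 0.013).

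Of the 9 measured genes listed beside ZNF595 and ZNF721, 3 were higher in MVs, all of them partners in silencing by zinc finger proteins. TRIM28, the corepressor, had means of 3608 ± 314 in MVs and 431 ± 238 in EXOs (log2 difference 3.22, limma adjusted p = 9.5e-04). Its EXOs mean was near the median of the EXOs arrays (422 to 429.7) and may be background, so the size of its difference is uncertain. CBX3, a heterochromatin protein, had 10,430.4 ± 160 and 1668 ± 90.4 (2.65, limma adjusted p = 1.1e-06), and its relative CBX1 had a log2 difference of 2.59 (limma adjusted p = 7.4e-05). Another relative, CBX5, had 1369 ± 207 and 1276 ± 31.6 and did not pass (0.091, limma adjusted p = 0.72). SETDB1, a histone methyltransferase recruited by TRIM28, had 548 ± 28.5 and 822 ± 167 and did not pass (-0.57, limma adjusted p = 0.15).

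None of the genes listed beside COLCA1, RASEF, TRIM4 and PRR11 passed. COLCA2, the neighbour of COLCA1 that the array annotation names POU2AF3, had means of 387 ± 118 in MVs and 521 ± 46.6 in EXOs (limma adjusted p = 0.38). POU2AF1, a transcriptional coactivator of B cells from the same neighbourhood, had 485 ± 16.6 and 826 ± 100.3, a log2 difference of -0.76 (limma adjusted p = 0.052). TRIM25, a ubiquitin ligase of RNA sensing like TRIM4, had 971 ± 224 and 1562 ± 319.5. SKA2, which lies beside PRR11, had 1622 ± 42.5 in MVs and 895 ± 186 in EXOs, a log2 difference of 0.88 that was under 2-fold (limma adjusted p = 0.017).

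The probe sets closest in pattern to the 8 leads were sought among 313 others of the highest 1% that have 1 gene symbol. Likeness was the root mean square difference of log2 signals over the 9 arrays, each centred on its own mean. COLCA1 was closest to MVK, at 0.056, with signals of 3976 in MVs, 5006 in EXOs and 4795 in hESEVs, and then to OTUB1, at 0.12. RASEF was closest to SLC35D4 (0.091) and SLC35E1 (0.095), and SLC25A16 to SLC35D4 (0.079) and USP34 (0.11). TRIM4 was closest to INO80C (0.068) and CYP1A2 (0.070).

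CDK13 was closest to NLN, at 0.056, whose means of 21,904 in MVs, 22,995 in EXOs and 16,160 in hESEVs were also near in level, and then to DBT (0.084). ZNF721 and PRR11 shared ANAPC16 as their closest (0.15 and 0.14), followed by CTBP2 (0.16) for ZNF721 and KLHL24 (0.15) for PRR11. ZNF595 was closest to PNO1 (0.13) and OCIAD1 (0.13). Of these nearest probe sets, those of MVK, OTUB1 and INO80C had the plain suffix, that of CTBP2 had _s_at and the others had _x_at, the suffix of 72.1% of the highest 1% that were within 2-fold between the fractions.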

How the data were processed

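Total RNA of MVs, EXOs and hESEVs from H9 hESCs had been hybridised by the authors to 9 Affymetrix HG-U133 Plus 2.0 arrays. The deposited values are MAS5 signals, a linear intensity for each probe set that the authors scaled to a target of 500. The MAS5 version is not given in the sources used here, and the RMA values of the study's own comparison were not used. The mean without the lowest and highest 2% was 500.0 on every array.

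Signals under 32 were raised to 32 and log2 was taken. Tests ran on 54,613 probe sets, without 62 controls: 41,091 with 1 gene symbol in the array annotation, 1801 with several and 11,721 with none. Gene IDs came from RefSeq (GRCh38.p14, names only). Groups came from the labels. MVs and EXOs were compared on 6 arrays, and hESEVs with the mean of both on 9, with limma 3.58.1 in R 4.3.3 (lmFit, eBayes with a trend, two-sided, Benjamini-Hochberg), checked on simulated data. A call needed an adjusted p under 0.05 and 2-fold. Figures used Python 3.11.15 and matplotlib 3.10.9.

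The genes named are the 8 members with all their probe sets, up to 4 of each set of relatives and partners by smallest p, the 2 probe sets nearest to each lead in pattern, and the Alu and ribosomal controls. CBX5 is named beyond this rule, as a relative of CBX1 and CBX3. RAB44, SLC25A6, TDGF1 and NEUROD1 were listed and had no probe set of 1 symbol. The members and lists were chosen with earlier results of these data known. Alternatives changed the scaling, floor, filter, trend, replicate block, test, probe sets per gene and arrays.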

Additional observations from a re-analysis of the deposited data

How the results depend on the processing

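The precision is limited by 3 arrays a group. MVs and EXOs differed by the call rule in 5027 probe sets, in 3089 by the methods' t-test after Benjamini-Hochberg adjustment and in 2812 with 1 probe set a gene. hESEVs differed from the mean of the fractions in 75 probe sets, in 143 with quantile normalization, 116 with median centring and 118 with a floor of 100. This count was 37 without the trend, 1456 by the unpaired t-test of this comparison without adjustment, and 48 to 80 when 1 array was left out. The count was 49 without MVs replicate 2 or 3 and 48 without hESEVs replicate 2. No member probe set was called, and 1 (PRR11 219392_x_at) was with quantile normalization, with median centring, with arrays aligned on their hybridization spike-ins, or without EXOs replicate 1 or 3, so that leaving out 1 array gave 0 to 1. At an adjusted p alone, 4 member probe sets passed. The number was 2 with quantile normalization, 1 with a floor of 100, 0 without the trend and 2 with 1 probe set a gene. By the unpaired t-test of this comparison it was 11 without adjustment and 0 with it. When 1 array was left out it was 0 to 3. It was 0 without MVs replicate 1, 2 or 3 or hESEVs replicate 1 or 2. Without hESEVs replicate 3 it was 1, and without EXOs replicate 3 it was 2. With quantile normalization the hESEVs difference turned from -0.16 to 0.25 for RASEF and from -0.085 to 0.22 for SLC25A16, and COLCA1 passed at 0.66 (limma adjusted p = 0.041). Relatives and partners higher in EXOs numbered 0, then 2 with quantile normalization (SLC25A20 and RIGI), 1 by the methods' t-test without adjustment (CDK9), 1 with all 9 arrays in 1 fit (CDK9), and 0 to 1 when 1 array was left out (SLC25A20 without MVs replicate 1, CDK9 without MVs replicate 3). The cause was not tested.

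Whether arrays of the same replicate number came from the same culture is not stated in the labels. The correlation of deviations between arrays of the same number was -0.011 to 0.013. Noise in so few arrays a group can hide a shared culture, so this correlation cannot decide whether the arrays were paired. With the replicate block, hESEVs differed from the mean of the fractions in 49 probe sets, and 2 member probe sets, both of PRR11 (219392_x_at and 228273_at), had an adjusted p under 0.05.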

Other observations

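Among the lead probe sets of the 8 genes, by the root mean square difference of centred log2 signals over the 9 arrays, RASEF and SLC25A16 were the closest pair, at 0.10, followed by COLCA1 and SLC25A16 at 0.14, TRIM4 and ZNF595 at 0.15, and CDK13 and PRR11 at 0.19. PRR11 and ZNF595 were the farthest apart, at 0.56, with TRIM4 and PRR11 at 0.55. ZNF721 and ZNF595, which lie in the same gene cluster, were at 0.51. The arrays fall into 3 groups, so no correlation over the 9 is given.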
